A study of Arabidopsis with 12 samples.

Results

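The genes described are 10 regulators, uptake genes and a storage gene of the iron deficiency response of Arabidopsis, followed in wild type (WT) seedlings and in seedlings of mac3a3b, a mutant of the paired genes MAC3A and MAC3B that code for proteins of a spliceosome-associated complex. They were taken by locus from a table of 37825 genes: BHLH38 (AT3G56970), BHLH39 (AT3G56980), BHLH100 (AT2G41240), BHLH101 (AT5G04150), FIT (AT2G28160), PYE (AT3G47640), BTS (AT3G18290), IRT1 (AT4G19690), FRO2 (AT1G01580) and FER1 (AT5G01600). BHLH100 was selected on its rise in the mutant control libraries, so the comparison of mutant control with WT control is a description below and carries no p-value for any gene. BHLH100 itself is tested only between the genotypes at 3 days, where none of the libraries that selected it are compared. The fit pools the spread over all 12 libraries, however, so those that selected it still enter the standard error of that test.

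Whole seedlings were grown on half-strength MS medium with sucrose. The labels call part of the libraries control and the others 3 days, and the treatment named is 37 °C. Each genotype has 3 libraries of each kind, called here WT control, mutant control, WT 3 days and mutant 3 days. What the titles call control is 0 hours after heat in the series text, no unheated sample of the later point is named, and the ages are not given, so heat, recovery, age and time of day cannot be told apart in a change from control to 3 days. Levels are TPM, the length-corrected share of a gene in its library.

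Plants on little iron switch on a cascade of basic helix-loop-helix (bHLH) transcription factors. The subgroup Ib factors bHLH38, bHLH39, bHLH100 and bHLH101 pair with FIT in the root epidermis and activate FRO2, the ferric chelate reductase, and IRT1, the importer of ferrous iron. POPEYE (PYE) is a bHLH factor induced in the root stele that represses iron distribution and storage genes, BRUTUS (BTS) is an E3 ubiquitin ligase that restrains the response, and FER1 encodes a plastid ferritin that stores iron and is induced when iron is plentiful.

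MAC3A ranged from 9.14 to 10.3 TPM in mutant control against 33.4 to 35.8 in WT control, and from 5.6 to 6.81 against 59.5 to 61.5 at 3 days. MAC3B ranged from 9.89 to 10.6 against 69.7 to 76.2 TPM at control and from 8.77 to 9.81 against 128 to 137 at 3 days. Both targeted genes were thus lower in every mutant library than in every WT library. TPM gives no depth, so no counting interval can be set on any level. Whether the replicates were grown apart is not stated, and p-values cover only the spread between these libraries, which may be technical. The summed level of 18 root tissue markers ran from 132 to 150.2 TPM in the WT control libraries and from 113 to 147 in those of mutant control. At 3 days it ran from 58.6 to 76.2 TPM for WT and from 20.0 to 21.0 for the mutant, where 3 of the markers were at 0 in all libraries. The sum of 10 green tissue markers ran from 41093 to 41973 TPM in the WT control libraries and from 47537 to 50068 in those of mutant control, and at 3 days from 7089 to 9120 for WT and from 4344 to 5804 for the mutant. In these whole seedlings fewer cells of a type and less RNA per cell cannot be told apart.

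In control seedlings, 8 of the 10 genes were higher in the mutant than in WT. The subgroup Ib factors, IRT1, FRO2, PYE and BTS all stood above WT in every library (59.9% of all genes had no overlap between these groups, in either direction), FIT and FER1 overlapped with WT, and the size ran from 1.45-fold for BTS to 32.4-fold for BHLH100. At the threshold used throughout, an adjusted p under 0.05 in a fit over all genes, 30.3% of 22462 genes tested were higher and 19.2% lower in the mutant. The higher share of all calls was 61.2%, and 49.9% under median-of-ratios scaling. Since BHLH100 was selected on this comparison, nothing is read from the count of 8 against that share.

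Among the subgroup Ib factors, BHLH100 was listed at 0.21, 0.31 and 0.28 TPM in WT control and at 10.6, 4.56 and 10.8 in mutant control. The difference was 2.85 on the log2(TPM + 1) scale, with a standard error (SE) of 0.255, a scale that understates changes of low genes. WT control stayed below 1 TPM throughout, so the 32.4-fold ratio of means rests on a WT mean of 0.267 TPM. Its paralog BHLH38 was listed at 0.96, 2.65 and 1.22 TPM in WT control and at 16.1, 6.57 and 14.6 in mutant control, a 7.72-fold ratio of means. BHLH39 was listed at 2.05, 2.57 and 2.15 TPM in WT control and at 15.9, 6.25 and 14.0 in mutant control, a 5.33-fold ratio. The lowest mutant library was 2.48 times the highest WT library for BHLH38 and 2.43 times for BHLH39. BHLH101 was listed at 0.49, 0.73 and 0.73 TPM in WT control and at 5.37, 2.45 and 5.45 in mutant control, a 6.81-fold ratio. Summed over the 4 factors, the level was 4.78 ± 1.32 TPM in WT control and 37.5 ± 15.4 in mutant control (SD, n = 3), and BHLH38 supplied 33.7% and 33.1% of it. BHLH100 and BHLH101 reached 1 TPM only in mutant control and so passed the filter on low values, at least 1 TPM in at least 3 libraries, through that group alone. All 10 genes passed it.

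FIT, the partner of these factors, was listed at 8.13, 7.69 and 8.72 TPM in WT control and at 11.02, 6.19 and 9.30 in mutant control. The mutant libraries fell on both sides of WT, with a log2 difference of 0.069 (SE 0.157) that was -0.0076 under median-of-ratios scaling. FIT thus differed by less than the spread between replicates. IRT1 was listed at 32.3, 27.9 and 23.3 TPM in WT control and at 144, 69.5 and 128 in mutant control, a 4.09-fold ratio of means. FRO2 was listed at 5.76, 6.15 and 3.73 TPM in WT control and at 15.8, 8.80 and 14.95 in mutant control, a 2.53-fold ratio. Neither uptake gene overlapped between genotypes. The root marker sums did overlap, but 9 of the 17 tested single markers did not, beside 59.9% of all genes. Of these 17 markers 1 was higher and 4 lower in the mutant, beside 30.3% and 19.2% of all genes. The part of root tissue in the uptake genes was not tested.

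PYE was listed at 6.92, 8.42 and 7.05 TPM in WT control and at 19.4, 12.5 and 18.2 in mutant control, a 2.24-fold ratio of means. BTS was listed at 18.2, 20.4 and 19.9 TPM in WT control and at 29.9, 24.0 and 30.8 in mutant control, a 1.45-fold ratio. The groups of both genes stood apart, with BTS the smallest of the 8 shifts. FER1 was listed at 197, 125 and 160 TPM in WT control and at 140, 319 and 284 in mutant control, and these groups overlapped. Its log2 difference was 0.55 (SE 0.257), 0.92 without mutant control replicate 1 and 0.33 without mutant control replicate 2.

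**Figure D1:**
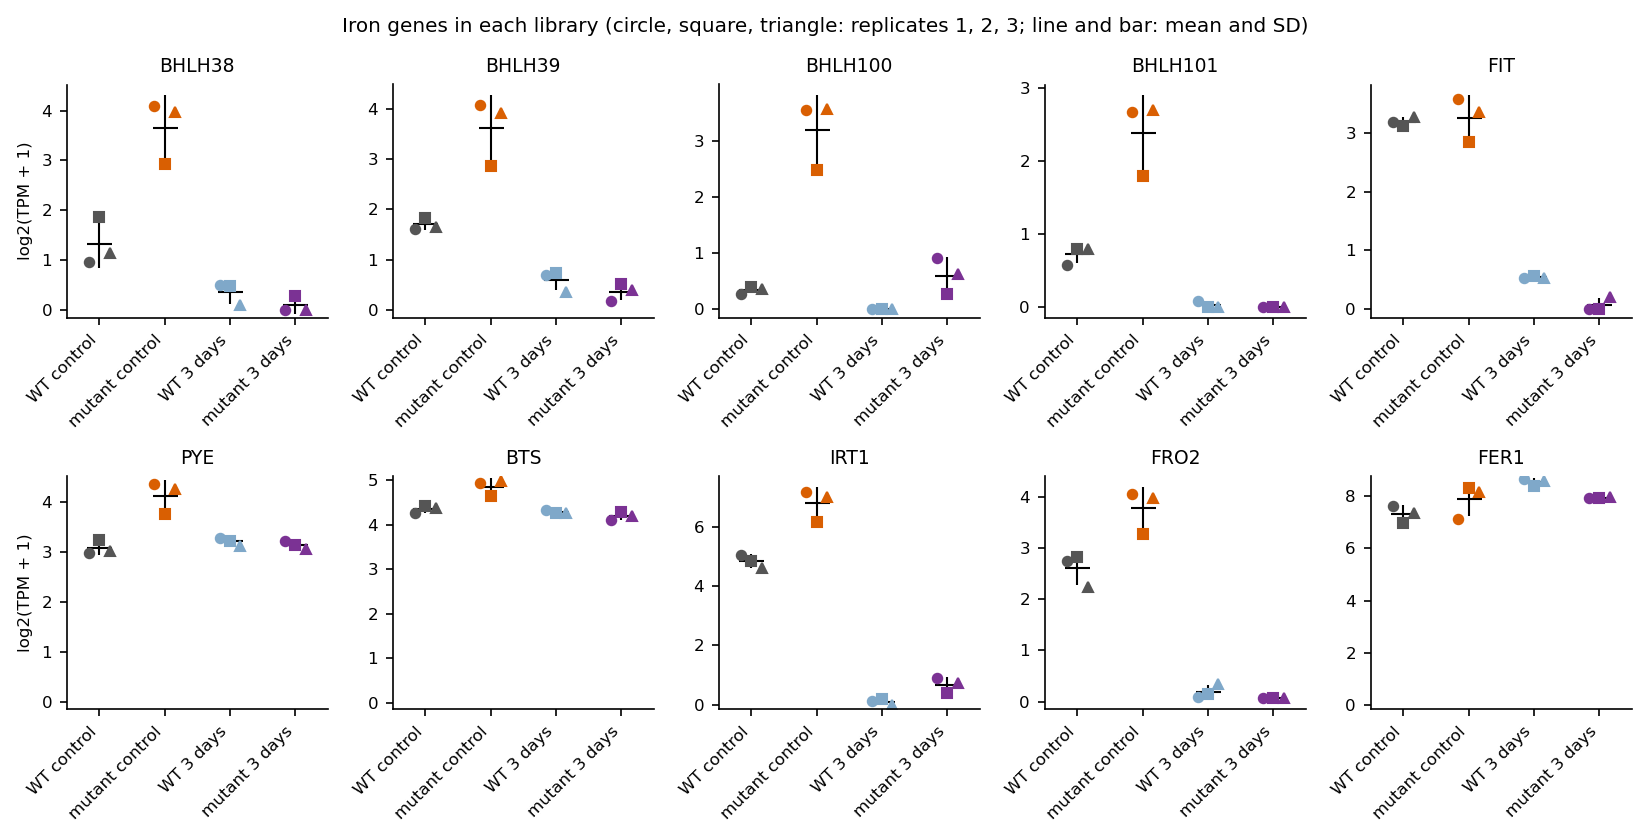
Level of each of the 10 iron genes on the log2(TPM + 1) scale in WT control, mutant control, WT 3 days and mutant 3 days. Each marker is 1 library, and the line and bar are mean and SD (n = 3); all but FIT and FER1 are highest in the mutant control group with no overlap, and 7 genes (the 4 BHLH genes, FIT, IRT1 and FRO2) are below 1 TPM in every 3-day library.

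The 3 mutant control libraries differed among themselves. Replicate 2 was the lowest for 9 of the 10 genes, at between 41.9% (BHLH39) and 79.0% (BTS) of the mean of the other two, and for FER1 it was the highest, at 150.4%. Across all genes with a value to rank, replicate 2 was the lowest for 37.9% of 19719. In WT control, 8 of the genes could be ranked, and replicate 2 was the lowest for 2 of them. The same mutant library held the lowest root marker sum, 113 TPM against 139 and 147. Its part in the spread of the iron genes was not tested.

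Some storage genes of the same library lay the other way. Over the 13 ranked genes of storage and organelle iron, replicate 2 was the lowest for 4, with a median of 105.5% of the mean of the other two, and VTL5 (92.7%), FRO6 (94.6%) and FRO7 (91.6%) were below that mean. FER4, a second plastid ferritin, was at 154% of the mean of the other two, and VTL1 and VTL2, relatives of the vacuolar iron transporter VIT1, were at 159% and 135%. These 3 genes were chosen for mention after their values were seen. FER3 was at 128% and FER2, the ferritin known from seeds, at 117%. In the other 3 iron lists replicate 2 was mostly the lowest. It was so for 14 of 15 ranked genes of iron chelation and transport, 10 of 11 of root acquisition and coumarins, and 11 of 14 other regulators. Its medians there were 87.2%, 77.0% and 88.4% of the mean of the others, a smaller shift than 54.2% for the 10 genes. Replicate 2 was also the lowest for 9 of 14 copper and zinc genes, 9 of 14 root markers and 6 of 10 green markers, beside 37.9% of all genes.

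**Figure D2:**
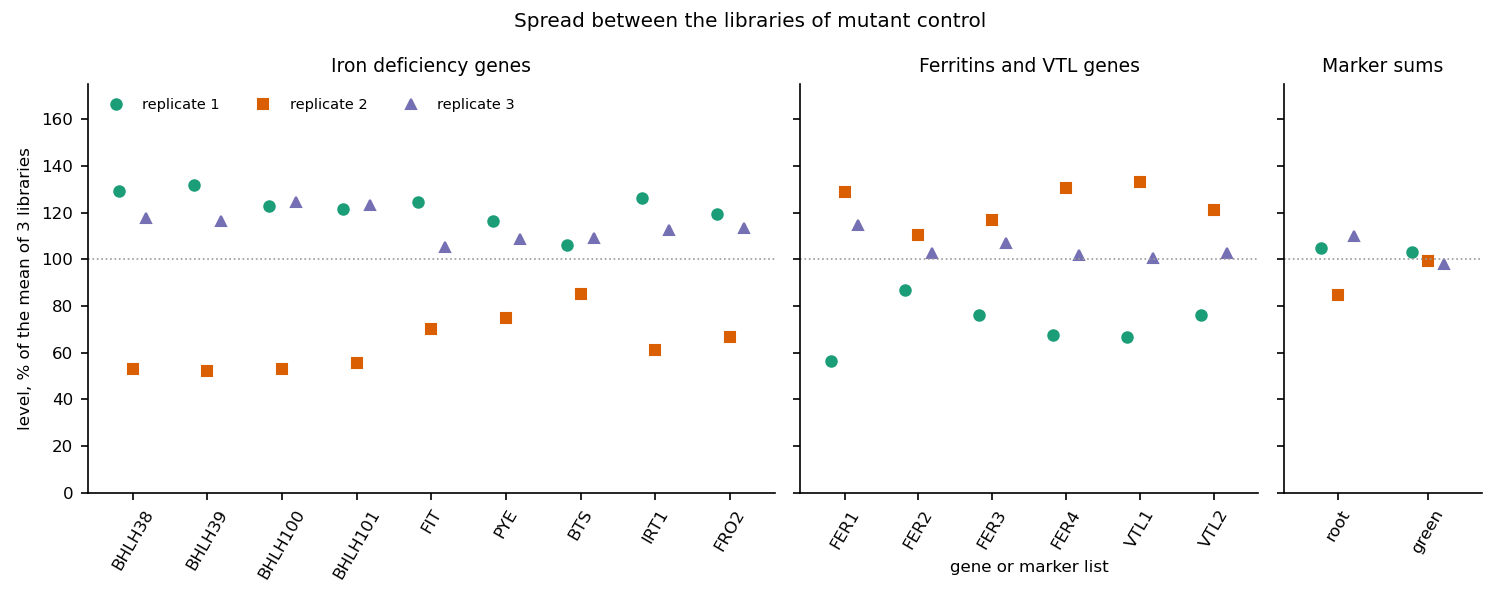
Level of each gene or marker sum in the 3 mutant control libraries, as a percentage of the mean of the 3. The square, replicate 2, is lowest for all 9 iron deficiency genes in the left panel (85.0% of the mean for BTS, 51.9% for BHLH39), highest for the 4 ferritins, VTL1 and VTL2 in the middle panel and lowest for the root markers on the right.

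In WT, the uptake genes and their regulators fell from control to 3 days and FER1 rose. Of the 9 genes tested, 6 fell (BHLH38, BHLH39, BHLH101, FIT, IRT1 and FRO2) and 1 rose, while PYE and BTS did not pass the test. BHLH101 is counted here although it passed the filter on low values through mutant control alone, a group not compared in this change. Of all genes, 26.4% fell and 54.9% rose, so 67.5% of calls were rises (50.1% under median-of-ratios scaling), and the median gene rose by 0.389 on the log2 scale, against a median of -0.83 over the 10 genes. BHLH100 is given here as values only, since WT control took part in its selection.

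IRT1 was at 0.10, 0.13 and 0 TPM in WT 3 days, after 23.3 to 32.3 in control. It changed by -4.73 (SE 0.237, limma adjusted p = 3.71e-09), the largest change among the 10 genes. FRO2 was at 0.06, 0.11 and 0.27 TPM, a 35.5-fold fall of the mean and a log2 change of -2.42 (SE 0.205, adjusted p = 4.06e-07). FIT was at 0.44, 0.47 and 0.44 TPM, an 18.2-fold fall and a log2 change of -2.66 (SE 0.157, adjusted p = 1.60e-08). All 3 genes thus went from clear expression to under 0.5 TPM with no overlap. Among the root tissue markers, 10 of 17 tested fell and 3 rose, and their summed level went from a mean of 140.0 to 70.1 TPM; their part in the fall of the uptake genes was not tested.

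The subgroup Ib genes fell from a lower start. BHLH39 was at 0.62, 0.67 and 0.29 TPM in WT 3 days, a 4.28-fold fall of the mean and a log2 change of -1.10 (SE 0.261, adjusted p = 0.00209). BHLH38 was at 0.42, 0.39 and 0.07 TPM, a log2 change of -0.97 (SE 0.304, adjusted p = 0.0113), which was -0.70 (adjusted p = 0.0536) without WT control replicate 2, its highest control library. BHLH101, kept by the filter through mutant control and not through these libraries, was at 0.06, 0 and 0 TPM, a log2 change of -0.69 (SE 0.201, adjusted p = 0.00759, a call that held with no filter). The mutant control libraries also enter that standard error. BHLH100 was listed at 0 in all 3 libraries. All of these levels were under 1 TPM, where the pseudocount sets the size: with 0.1 in place of 1 the changes were -1.97 for BHLH39, -2.16 for BHLH38 and -2.66 for BHLH101.

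PYE was at 8.71, 8.30 and 7.74 TPM in WT 3 days, a change of 0.13 (SE 0.136, adjusted p = 0.386) that turned to -0.27 (adjusted p = 0.0805) under median-of-ratios scaling. BTS was at 19.0, 18.2 and 18.1 TPM, a change of -0.073 (SE 0.0875, adjusted p = 0.451) that became -0.50 (adjusted p = 0.000242) under the same scaling. PYE and BTS thus kept levels within or near their control range on the deposited scale while the median gene rose. FER1 was at 399, 330 and 383 TPM, all above the 3 control libraries. It rose 2.30-fold in the mean and by 1.22 on the log2 scale (SE 0.257, adjusted p = 0.000925), or 0.83 above the median gene.

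In the mutant, the regulators and uptake genes fell too, PYE and BTS among them on the deposited scale. Of the 8 genes tested 7 fell and FER1 did not pass the test, where 46.5% of all genes fell and 39.4% rose. BHLH100 and BHLH101 passed the filter through mutant control alone, so their falls from it are values with no test. The median log2 change over the 10 genes, these included, was -2.89, against -0.132 over all genes. Mutant control, the group that selected BHLH100, is the starting point of each of these changes.

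IRT1 was at 0.88, 0.31 and 0.65 TPM in mutant 3 days, 186-fold below its mutant control mean, with a log2 change of -6.10 (SE 0.237, adjusted p = 2.04e-10). FRO2 was at 0.05 TPM in all 3 libraries, 263-fold below, a log2 change of -3.71 (SE 0.205, adjusted p = 5.06e-09). FIT was at 0, 0 and 0.15 TPM, a log2 change of -3.20 (SE 0.157, adjusted p = 1.76e-09). The uptake module was thus near the bottom of the scale in the mutant too. Of the 17 root tissue markers tested, 15 fell in the mutant and none rose, with the sum going from a mean of 133 to 20.3 TPM; their part was not tested.

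BHLH38 was at 0, 0.22 and 0 TPM in mutant 3 days, a log2 change of -3.57 (SE 0.304, adjusted p = 3.11e-07). BHLH39 was at 0.13, 0.43 and 0.32 TPM, a 41.0-fold fall of the mean and a log2 change of -3.25 (SE 0.261, adjusted p = 1.77e-07). BHLH101 was listed at 0 in all 3 libraries, a log2 change of -2.38 (SE 0.201). BHLH100 was at 0.88, 0.20 and 0.54 TPM, each above the WT libraries of the same day. Its mean in mutant control was 16 times its mean in mutant 3 days. The summed level of the 4 factors was 0.907 ± 0.0896 TPM in mutant 3 days and 0.840 ± 0.416 in WT 3 days (SD, n = 3), and the share of BHLH38 in it was 8.09% in the mutant and 34.9% in WT. The mutant share rests on the only library of BHLH38 above 0, at 0.22 TPM, so nothing is read from it.

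PYE was at 8.31, 7.75 and 7.32 TPM in mutant 3 days, a log2 change of -0.99 (SE 0.136, adjusted p = 2.60e-05), which brought it into the range of the WT libraries. BTS was at 16.4, 18.6 and 17.2 TPM, a log2 change of -0.66 (SE 0.0875, adjusted p = 1.78e-05), and it too overlapped with WT. Under median-of-ratios scaling BTS changed by -0.48 in the mutant, beside -0.50 in WT. FER1 was at 239, 243 and 247 TPM, inside the wide range of mutant control, with a log2 change of 0.061 (SE 0.257, adjusted p = 0.831). Without mutant control replicate 1, the lowest control library of FER1, the change was -0.31 (adjusted p = 0.0851).

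**Figure D3:**
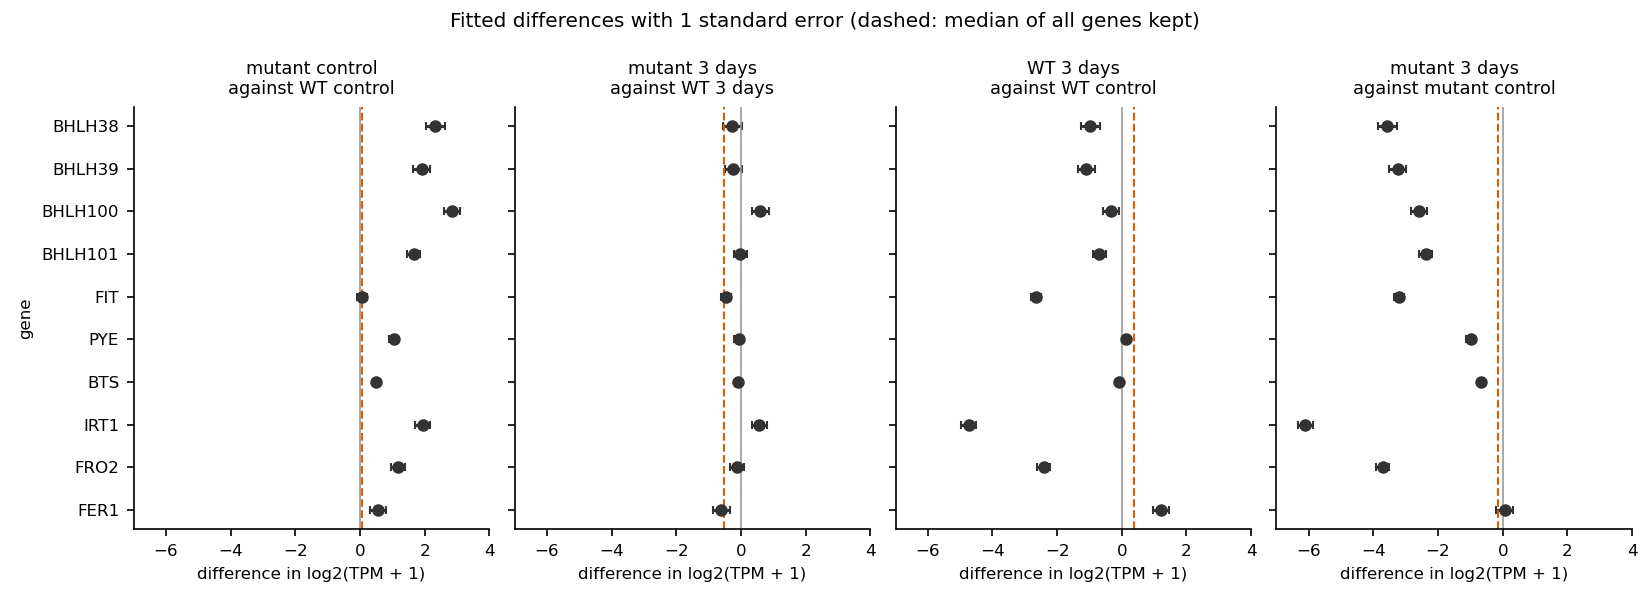
Fitted difference of each iron gene in log2(TPM + 1), with 1 standard error, for the 2 comparisons of genotypes and the 2 changes from control to 3 days. The dashed line is the median of all 22462 genes; the largest changes are the falls of IRT1, -4.73 for WT and -6.10 for the mutant, while the differences between genotypes at 3 days lie between -0.60 and 0.60.

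At 3 days, the genotypes differed little, and 4 of the 10 genes passed the test. BHLH100 and IRT1 were higher in the mutant, where 24.1% of all genes were higher, and FIT and FER1 were lower, where 58.7% of all genes were lower. The share of higher among all calls was 29.1%, and 47.4% under median-of-ratios scaling. The median gene differed by -0.509 on the log2 scale, so relative to it BHLH100 stood 1.11 and IRT1 1.08 higher, FIT 0.04 higher and FER1 0.092 lower. Libraries did not overlap for 5 of the 10 genes, where 82.9% of all genes had no overlap. They were these 4 and FRO2, which was at 0.06 to 0.27 TPM in WT and 0.05 in the mutant (log2 difference -0.12, adjusted p = 0.589). In the same comparison 15 of 17 root markers and 9 of 10 green markers were lower in the mutant and none higher, and their part was not tested.

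BHLH100, listed at 0 in the 3 WT libraries and at 0.20 to 0.88 TPM in the mutant, differed by 0.60 (SE 0.255, adjusted p = 0.0469, and 0.0668 with no filter, which it passed through mutant control alone). IRT1, at 0 to 0.13 TPM in WT and 0.31 to 0.88 in the mutant, differed by 0.57 (SE 0.237, adjusted p = 0.0423). Both are small differences in level, under 1 TPM in every library, and both calls were lost, at adjusted p from 0.0652 to 0.163, with no filter on low values and without any 1 library of WT 3 days, mutant 3 days replicate 1 or mutant 3 days replicate 3. The BHLH100 call was also lost without any 1 WT control library (adjusted p from 0.0588 to 0.0595), and that of IRT1 without WT control replicate 2 (adjusted p = 0.0543). With a pseudocount of 0.1 the differences were 2.52 for BHLH100 (adjusted p = 0.000216) and 2.01 for IRT1 (adjusted p = 0.000574).

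FIT was lower by a log2 difference of -0.47 (SE 0.157, adjusted p = 0.0159), with the call lost under median-of-ratios scaling (-0.36, adjusted p = 0.0533). The difference was -2.02 with a pseudocount of 0.1 (adjusted p = 0.000156), and it turned to 0.061 (adjusted p = 0.773) under quantile normalization. FER1 was lower by -0.60 (SE 0.257, adjusted p = 0.0473), all 3 mutant libraries lying below the lowest WT library. That call was lost without WT control replicate 3 (adjusted p = 0.0600) or any 1 of the 6 libraries at 3 days (0.0546 to 0.117), and the difference was -0.045 (adjusted p = 0.879) under median-of-ratios scaling. PYE differed by -0.073 (SE 0.136, adjusted p = 0.629) and BTS by -0.082 (SE 0.0875, adjusted p = 0.399). Under median-of-ratios scaling these turned to 0.42 for PYE (adjusted p = 0.0110) and 0.45 for BTS (adjusted p = 0.00056). The direction of PYE and BTS between genotypes at 3 days therefore depends on the scaling. BHLH38 (-0.26, SE 0.304, adjusted p = 0.433), BHLH39 (-0.24, SE 0.261, adjusted p = 0.413) and BHLH101 (-0.028, SE 0.201, adjusted p = 0.905) did not pass the test.

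The change to the later point differed between genotypes for each of the 8 genes tested. BHLH100 and BHLH101, given as values only, differed by -2.25 (SE 0.361) and -1.69 (SE 0.285). Each difference was lower in the mutant, as it was for 56.3% of all genes, with 20.6% higher and a median of -0.552. Of all calls 26.7% were higher, and 49.3% under median-of-ratios scaling. Relative to that median, the differences were -2.04 for BHLH38, -1.60 for BHLH39 and -1.14 for BHLH101. BHLH38 differed by -2.59 (SE 0.429, adjusted p = 0.000171) and BHLH39 by -2.15 (SE 0.369, adjusted p = 0.000226). For these 3 genes the levels at 3 days overlapped between genotypes and those at control did not. At control BHLH38 and BHLH39 differed between genotypes by 2.33 and 1.91, and at 3 days by -0.26 and -0.24. Their response differences thus largely restate the control comparison, which carries no p-value, and are no separate support for it. The same holds on the deposited scale for PYE, FRO2 and BTS. They differed by 1.05, 1.17 and 0.51 at control and by -0.073, -0.12 and -0.082 at 3 days. For IRT1 the values were 1.94 and 0.57, for FIT 0.069 and -0.47, and for FER1 0.55 and -0.60. Mutant control enters the differences of these genes too.

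PYE differed by -1.12 (SE 0.193, adjusted p = 0.000232), and by -0.55 (adjusted p = 0.0182) and -0.39 (adjusted p = 0.0987) under median-of-ratios scaling and quantile normalization. FRO2 differed by -1.30 (SE 0.289, adjusted p = 0.00156) and IRT1 by -1.37 (SE 0.335, adjusted p = 0.00284). For IRT1 the difference was 0.038 (adjusted p = 0.955) with a pseudocount of 0.1, since the low 3-day levels then weigh more. FER1 differed by -1.16 (SE 0.363, adjusted p = 0.0125), BTS by -0.59 (SE 0.124, adjusted p = 0.00102) and FIT by -0.54 (SE 0.222, adjusted p = 0.0446). Under median-of-ratios scaling FER1 (-0.51, adjusted p = 0.214), BTS (0.020, adjusted p = 0.894) and FIT (-0.35, adjusted p = 0.173) did not pass the test, and the FIT call was also lost without any 1 library except mutant control replicate 2 and mutant 3 days replicate 3 (adjusted p from 0.0534 to 0.105).

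The order of the 4 group means was the same for BHLH38, BHLH39, BHLH101, FIT and FRO2, with mutant control first, then WT control, WT 3 days and mutant 3 days. In BHLH38, BHLH39 and BHLH101 the 2 groups at 3 days overlapped, and in FIT the 2 control groups did. IRT1 had mutant 3 days above WT 3 days, and BHLH100 had mutant 3 days second, overlapping with WT control. PYE and BTS were apart from the rest only in mutant control, and FER1 ran from WT 3 days, the highest, through mutant control and mutant 3 days, which overlapped, down to WT control.

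Over the 12 libraries, the genes most like IRT1 on the log2 scale were CYP82C4, a cytochrome P450 that acts on root coumarins (Pearson r = 0.995), FRO2 (0.991) and THX, a plastid thioredoxin (0.991). For BHLH100 they were PAT1, a GRAS protein of phytochrome signalling (0.976), VTE1, the tocopherol cyclase (0.976), and SEP2, a light stress protein of the chloroplast (0.960). PYE was 15th among all genes compared with BHLH100 (r = 0.953) and BHLH101 27th (0.940). For FER1 they were PRMT6, an arginine methyltransferase (0.917), CDC48B, an ATPase (0.906), and HCC1, a mitochondrial copper protein (0.893), and FER1 was negatively related to the other 9 genes, from -0.092 for PYE to -0.589 for FIT. These values describe 4 group levels more than 12 independent points, and no test is given.

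The 62 iron genes outside the 10 fell in 4 lists, of which 54 genes were measured above the filter. In control seedlings 24 of them were higher and 9 lower in the mutant. From control to 3 days 20 rose and 30 fell in WT, and 11 rose and 35 fell in the mutant. At 3 days 8 were higher and 32 lower in the mutant than in WT. In control seedlings the higher share was 44.4%, beside 30.3% of all genes, and the lower share 16.7%, beside 19.2%. The shares that fell were 55.6% in WT and 64.8% in the mutant, beside 26.4% and 46.5% of all genes, and those that rose 37.0% and 20.4%, beside 54.9% and 39.4%. At 3 days the lower share, 59.3%, was close to the 58.7% of all genes, and the higher share was 14.8%, beside 24.1%. Their medians were 0.16, -0.56, -1.30 and -0.53 on the log2 scale in that order, beside 0.0601, 0.389, -0.132 and -0.509 over all genes.

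Among the 18 other regulators, 14 were tested, and 8 were higher and 2 lower in mutant control, beside 30.3% and 19.2% of all genes. The largest shift was that of AT2G30766, at 2.99, 6.63 and 3.95 TPM in WT control and 38.7, 17.2 and 30.3 in mutant control. AT1G47400 was at 1.84, 5.27 and 3.71 TPM in WT control and at 19.8, 10.6 and 12.6 in mutant control. Both loci carry no gene symbol in the annotation used. They were under 1 TPM in every 3-day library, and their responses differed between genotypes by -2.06 (SE 0.397) and -2.17 (SE 0.382). Both loci were named for their shift at control, which these differences largely restate, so they are given with no test. BHLH11, a repressor of the response, was lower in mutant control by -0.56 (SE 0.160), and NAI1, a bHLH factor of ER bodies, by -0.52 (SE 0.123).

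The subgroup IVc factors act above the Ib genes and activate them with their partner bHLH121. ILR3 was at 78.9 ± 1.61 TPM in the control libraries of WT and 77.5 ± 0.715 in those of the mutant, and at 3 days it was at 80.4 ± 1.08 and 19.6 ± 1.40 (SD, n = 3). The level was alike in 3 groups on the deposited scale (WT from control to 3 days 0.027, adjusted p = 0.609, but -0.42 under median-of-ratios scaling) and 4.10-fold lower in mutant 3 days than in WT 3 days (log2 difference -1.98, SE 0.0471, adjusted p = 1.46e-11). BHLH34 was 1.90-fold higher in mutant control, at 16.1 ± 2.01 against 8.45 ± 0.421 TPM, and 3.92-fold lower in mutant 3 days (log2 difference -1.72, SE 0.1, adjusted p = 1.37e-08). BHLH104 rose by 0.96 in WT (SE 0.0415, adjusted p = 1.08e-09) and changed by 0.035 in the mutant (adjusted p = 0.440), with a difference of -0.92 (SE 0.0587, adjusted p = 5.57e-08). Under median-of-ratios scaling its rise in WT was 0.51 and the difference -0.29. BHLH115, which the naming rule did not pick and is added to complete the subgroup, was 2.91-fold lower in mutant 3 days than in WT 3 days (log2 difference -1.50, SE 0.0793, adjusted p = 5.68e-09). bHLH121 rose in both genotypes, by 0.87 in WT (SE 0.0643, adjusted p = 1.14e-07) and by 1.04 in the mutant (SE 0.0643, adjusted p = 1.52e-08), or by 0.43 and 1.23 under median-of-ratios scaling.

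Root iron acquisition and coumarin genes did not follow IRT1 as a group in mutant control. Of 11 tested, 1 was higher, CYP82C4, at 18.9 ± 5.91 against 6.76 ± 0.704 TPM (SD, n = 3), and 3 were lower. Of all genes, 30.3% were higher and 19.2% lower. FRO4, a ferric reductase gene related to FRO2 that is known from copper deficiency, was 4.11-fold lower, at 4.07, 3.09 and 3.96 TPM in mutant control against 16.7, 14.4 and 14.7 in WT control. FRO5, its neighbour on the chromosome, was 4.30-fold lower. FRO2 and these relatives thus differed in opposite directions between the genotypes at control. From control to 3 days they fell alike. FRO4 fell by -3.88 in WT (SE 0.107, adjusted p = 2.71e-11) and 21.0-fold in the mean in the mutant. FRO5 averaged 0.033 TPM in WT 3 days and 0.013 in mutant 3 days. At 3 days PDR9, an exporter of coumarins, was 7.03-fold lower in the mutant (log2 difference -2.41, SE 0.141, adjusted p = 1.44e-08) and NRAMP1, a manganese and iron importer, 3.60-fold lower (-1.78, SE 0.0850, adjusted p = 2.43e-09). IRT3, a zinc and iron importer, rose in both genotypes and was higher in the mutant at 3 days (0.54, SE 0.0819, adjusted p = 7.17e-05).

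The ferritins rose together in WT. FER2 rose from 1.39 ± 0.526 to 30.4 ± 2.41 TPM, by 3.74 (SE 0.151, adjusted p = 6.05e-10), FER3 by 1.24 (SE 0.125, adjusted p = 1.89e-06) and FER4 by 0.93 (SE 0.173, adjusted p = 0.000356). In the mutant FER2 rose by 1.89 (SE 0.151, adjusted p = 1.74e-07) and FER3 by 0.89 (SE 0.125, adjusted p = 2.99e-05), while FER4 changed by -0.34 (SE 0.173, adjusted p = 0.0840). The sum of the 4 ferritins was 271 ± 41.0 TPM for WT and 361 ± 123 for the mutant at control, and 637 ± 49.7 and 414 ± 3.21 at 3 days (SD, n = 3), with FER1 supplying between 58.2% and 68.6% of it. Of the 13 other storage and organelle genes tested, 6 were higher and 1 lower in mutant control, beside 30.3% and 19.2% of all genes. They were led by FRO7, the chloroplast ferric reductase, which was 3.01-fold higher. VTL5, a transporter of the VIT1 family, was 2.53-fold lower in mutant control and 7.52-fold higher in mutant 3 days (log2 difference 1.95, SE 0.148, adjusted p = 1.39e-07).

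Nicotianamine synthases make the chelator that carries iron inside the plant. NAS2 was listed at 7.41, 7.20 and 8.92 TPM in WT control and at 25.9, 21.8 and 32.4 in mutant control, a 3.41-fold ratio, and NAS1 and NAS4 were 1.30-fold and 1.53-fold higher. All 3 fell by 3 days in both genotypes, in the mutant by -4.89 for NAS1, -4.50 for NAS2 and -3.57 for NAS4 (adjusted p = 1.51e-11, 2.93e-11 and 7.96e-11). NAS3, known from leaves, fell with them in WT (-0.46, SE 0.188, adjusted p = 0.0410, groups overlapping). In the mutant it moved against them, from 7.31 ± 1.87 TPM in mutant control to 31.3 ± 4.29 in mutant 3 days. It rose by 1.97 (SE 0.188, adjusted p = 8.83e-07) and its response differed from WT by 2.43 (SE 0.265, adjusted p = 5.52e-06). Of the 16 genes of chelation and transport, 9 were higher and 3 lower in mutant control, beside 30.3% and 19.2% of all genes. OPT3, the phloem iron transporter, was 2.03-fold higher. FPN1 and FPN2, the ferroportins that load the xylem and the vacuole, were 2.84-fold and 4.91-fold lower. FPN2 averaged only 0.56 TPM in mutant control against 2.75 in WT control. It passed the filter on low values through WT control alone.

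**Figure D4:**
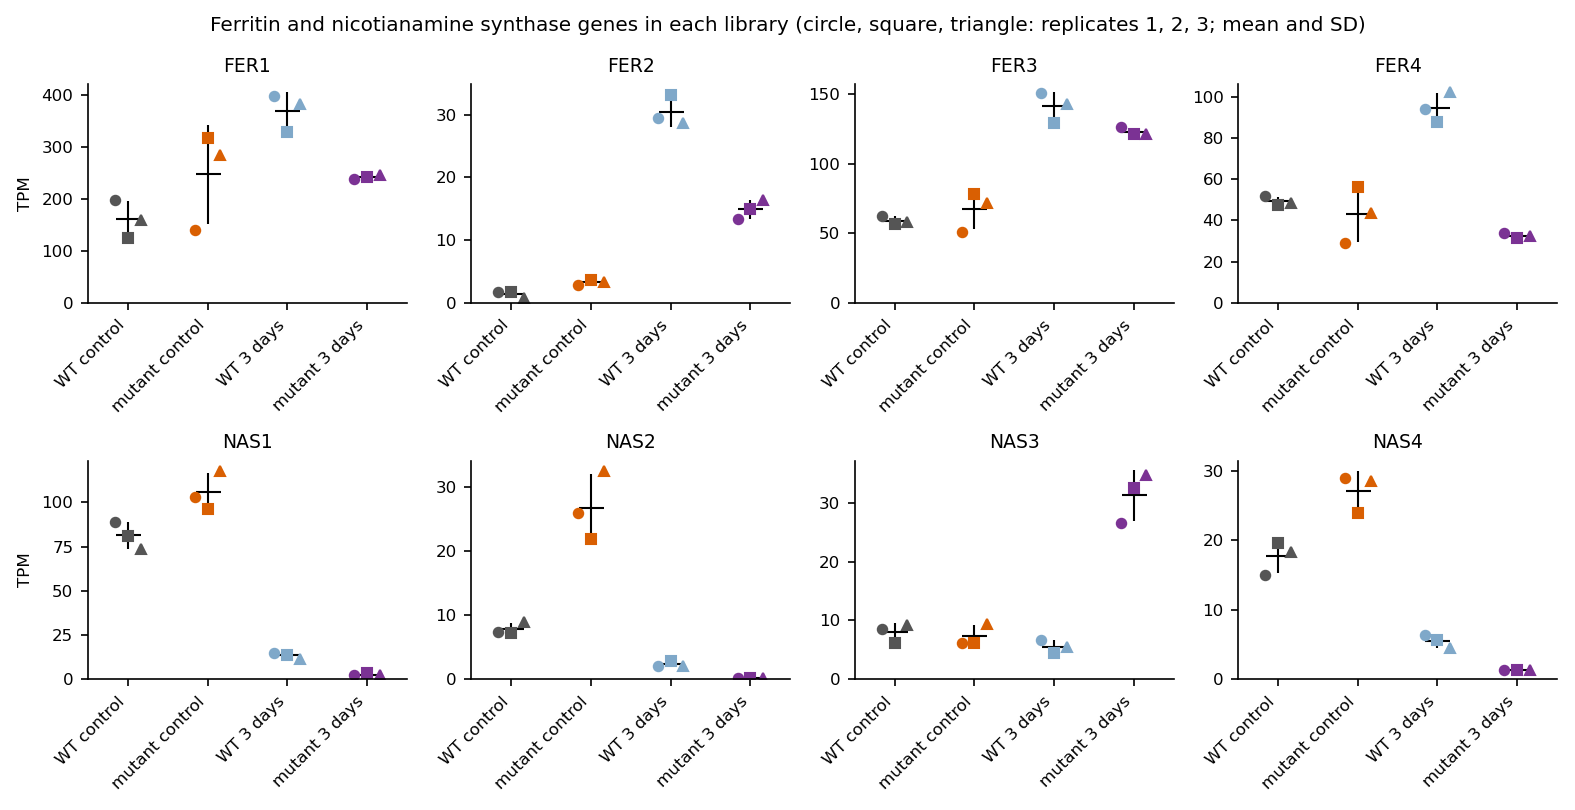
TPM of the 4 ferritin genes and the 4 nicotianamine synthase genes in each library, with mean and SD (n = 3) per group. All ferritins are highest in WT 3 days (FER2 at 30.4 ± 2.41 TPM), NAS1, NAS2 and NAS4 are highest in mutant control, and NAS3 is highest in mutant 3 days at 31.3 ± 4.29 TPM.

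Genes of copper and zinc deficiency were counted beside the iron genes. Of 14 tested, 2 were higher and 3 lower in mutant control, beside 30.3% and 19.2% of all genes. SPL7, the regulator of the copper response, was 1.89-fold higher and the zinc transporter ZIP3 2.52-fold lower. At 3 days 1 was higher in the mutant and 11 lower, beside 24.1% and 58.7% of all genes. The list median was then -0.522, close to the -0.509 over all genes. The higher gene was COPT2, a copper importer also linked to iron deficiency, at 130, 114 and 112 TPM in mutant 3 days against 21.8, 25.3 and 24.7 in WT 3 days (log2 difference 2.26, SE 0.128, adjusted p = 1.07e-08). FSD1, the iron superoxide dismutase, was 3.31-fold lower (-1.73, SE 0.0755, adjusted p = 1.15e-09).

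**Figure D5:**
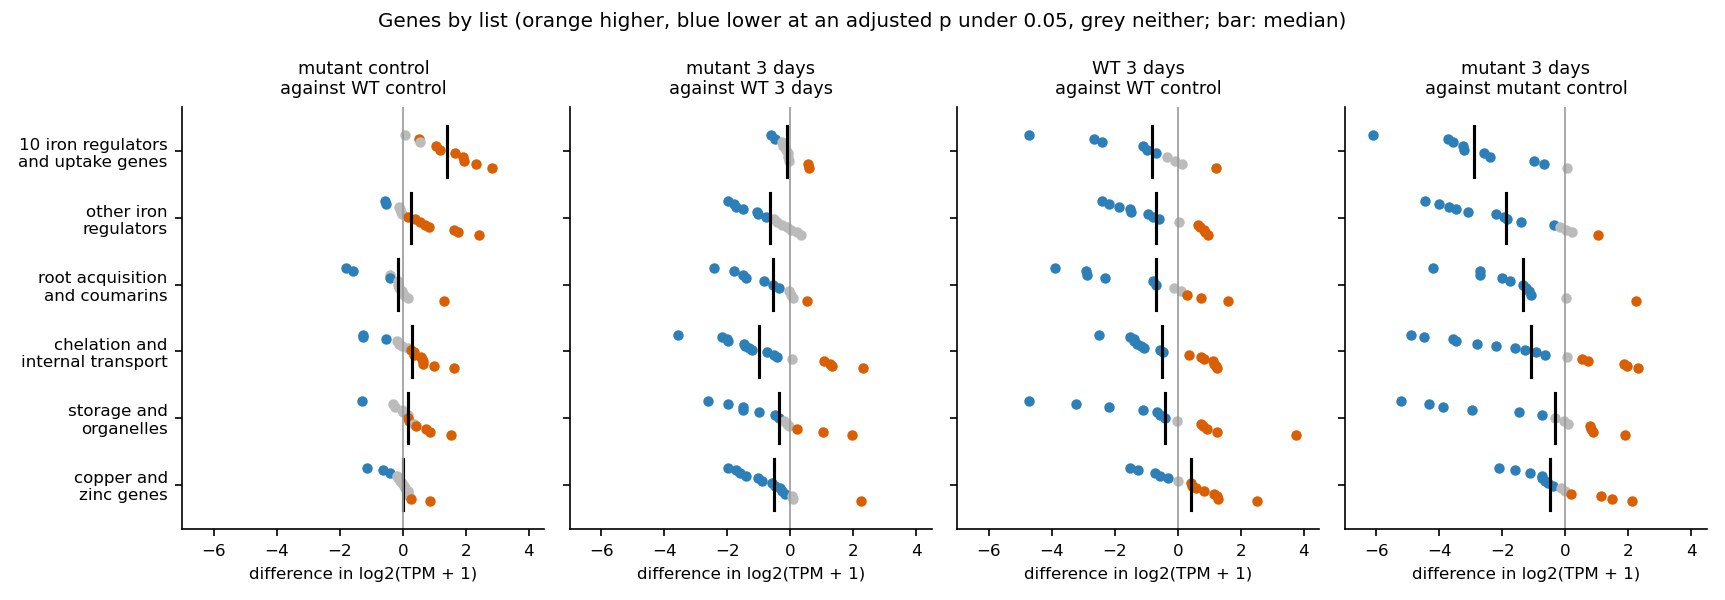
Difference in log2(TPM + 1) of each tested gene of the 10 iron genes and of the 5 other metal lists in 4 comparisons. Orange points were higher and blue points lower at an adjusted p under 0.05, grey points neither, and the bar is the list median. In the comparison at control, the colours of the 10 iron genes are description only. These genes have a median of 1.42 in mutant control and -2.89 for the mutant from control to 3 days.

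Some of these loci share their place with other genes. By the RefSeq TAIR10.1 gene table, BHLH38 overlaps with PIP5K4, BHLH101 with GLU1 and FER1 with a long noncoding RNA, AT5G01595, and the strand setting of the counting is not given in the sources used here. PIP5K4 stayed between 1.52 and 5.69 TPM and the noncoding RNA between 0 and 8.07, while GLU1 ranged from 8.82 to 280 TPM. BHLH101 was listed at 0 in WT 3 days replicates 2 and 3, where GLU1 was at 153 TPM or above. The group means of GLU1 nevertheless came in the same order as those of BHLH101. GLU1 averaged 270.6 TPM for mutant control, where BHLH101 averaged 4.42. For WT control the means of GLU1 and BHLH101 were 205.5 and 0.65 TPM. At the later point they were 172.8 and 0.02 TPM for WT, against 10.05 and 0 for the mutant. The part of GLU1 reads in the BHLH101 levels was not tested. Of the other genes named, ILR3, BHLH11, BHLH115, AT2G30766, NRAMP1, FPN2, FER2 and FER4 also overlap with a neighbouring locus, so their values are uncertain to that extent. IRT1 lies beside its relative IRT2, FRO2 beside FRO1 and BHLH38 beside BHLH39, and reads shared between such copies make the split within a pair uncertain. IRT2 and FRO1 were under 1 TPM in every library.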

How the data were processed

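RNA of Arabidopsis seedlings was measured in 12 libraries, 3 per group, grouped by their titles; the mutant of the titles was taken to be mac3a3b, which the series text names. Per the labels' protocols, mRNA was captured by oligo dT, and the kit was Illumina TruSeq. RSEM and TAIR10 are named per the submitters' processing notes; no version, aligner or strand setting is given there. The authors deposited a table of TPM for 37825 genes, a length-corrected share of each library, so a rise of abundant classes lowers all other values. TPM keeps no depth.

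Genes with at least 1 TPM in at least 3 libraries were kept (22462). A fit with limma 3.58.1 (R 4.3.3) on log2(TPM + 1) gave 4 group means over all 12 libraries, with an intensity trend. Calls are at a Benjamini-Hochberg adjusted p under 0.05 across the genes kept. An exact two-sided test of 3 against 3 libraries cannot go below 0.1. The fit was tested on simulated data. Fold ratios are of group means and are left out where 1 of the libraries reads 0. The members and the 7 lists of other genes (other iron regulators, root acquisition and coumarins, chelation and transport, storage and organelles, copper and zinc genes, root markers, green markers) were chosen with earlier results of these data known. Beside the 10 genes, the text names per list and comparison up to 2 called genes with the largest change in each direction whose groups do not overlap, and the 3 genes most correlated with BHLH100, IRT1 and FER1 among those with a symbol and a mean of at least 5 TPM in their highest group. Not all genes so picked are named. The alternatives were other pseudocounts (0.1 and 0.5), filters (none, or at least 5 TPM), scalings (median-of-ratios and quantile), a replicate block, no trend, a fit of the compared groups alone and leaving out each library.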

Additional observations from a re-analysis of the deposited data

Results flagged for a closer look

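The change from control to 3 days differed between mutant and WT for 8 genes by a test of the difference itself, given as log2 differences, mutant minus WT, with limma adjusted p-values from 0.000171 to 0.0446. Of all genes, 56.3% differed downward and 20.6% upward by the same test. Among the regulators, BHLH38 differed by -2.59, BHLH39 by -2.15, FIT by -0.54, PYE by -1.12 and BTS by -0.59. BHLH101, which passed the filter through mutant control alone, differed by -1.69. Among the uptake and storage genes, IRT1 differed by -1.37, FRO2 by -1.30 and FER1 by -1.16. The median over all genes was -0.552, and FIT at 0.015 above it and BTS at -0.037 lay next to that median. Under median-of-ratios scaling FIT, BTS and FER1 did not pass the test, and IRT1 was at 0.038 (adjusted p = 0.955) with a pseudocount of 0.1. Mutant control, on which BHLH100 was selected, enters each of these differences, so they are no separate support for the rise at control.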

How the results depend on the processing

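Of 1030 values of the 10 genes under other settings, 962 kept their direction and side of the threshold, 45 lost it, 5 passed it only there and 18 changed sign. They include 208 values of mutant control against WT control and all those of BHLH100, so the tally also holds values given without a test. The count of genes called between genotypes at 3 days, 4, was 1 with no filter on low values and 1 to 4 when single libraries were left out. Sign changes under median-of-ratios scaling were FIT at control (-0.0076), PYE (0.42) and BTS (0.45) between genotypes at 3 days, PYE in WT (-0.27) and the response difference of BTS (0.020). Under quantile normalization they were BHLH38 (0.15), BHLH39 (0.56), BHLH101 (0.033), FIT (0.061), PYE (0.70), BTS (0.38) and FRO2 (0.16) between genotypes at 3 days, PYE in WT (-0.25), FER1 in the mutant (-0.26) and the response difference of FIT (0.037). That of IRT1 was 0.038 with a pseudocount of 0.1. Leaving out single libraries gave -0.092 to 0.28 for FIT at control and -0.31 to 0.29 for FER1 in the mutant. The causes were not tested. Same-numbered replicates did not deviate together (r from -0.0961 to 0.0262), so the numbers are not read as pairs. With a replicate block, 3 of the 10 genes were called between genotypes at 3 days against 4, FER1 being lost (adjusted p = 0.0685). The calls of the other tests did not change. Depth is unknown, so levels under 1 TPM have no counting error, and their log2 size follows the pseudocount.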
